A study of Mus musculus with 3 samples.

Results

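Neuropeptide and granin genes were followed in mature medullary thymic epithelial cells (mTEC), the cells that display peripheral tissue antigens to developing T cells. The genes were chosen by name, with earlier results of these data known. They were Tac1, Tac2, Gal, Npy, Chgb, Scg2, Scg3, Scg5, Pcsk1 and Pcsk2. Of these 10 genes, 9 have a probe set listed with their symbol alone, each with 1 such probe set, out of 19937 genes named on the array. Pcsk2 was not analysed here. The series holds 3 libraries, 1 per genotype, of sorted EpCAM+, CD45-, Ly51low, MHC-II high cells. They came from mice aged 6 weeks, typically with 3 mice per pool. The labels name the C57b/6 strain for all 3 libraries. WT came from Sirt1fl/fl mice, which carry the floxed Sirt1 alleles but no Cre. Sirt1cKO came from Sirt1fl/fl Foxn1-Cre mice, in which the Foxn1 promoter drives Cre in thymic epithelium, cortical as well as medullary. AireKO came from Aire-null mice, in which the germline mutation is not limited to the epithelium. Because each genotype has 1 library, no test was possible, every difference describes a pair of libraries, and the spread between pools of mice is unknown.

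Neuropeptides are made as inactive precursors that are packed into dense-core vesicles, cut out by the proprotein convertases encoded by Pcsk1 and Pcsk2, and released on demand. Granins are acidic proteins that condense with the peptide cargo and help to form those vesicles. In the thymus, transcripts of such tissue-restricted genes belong to the repertoire that mTEC express ectopically, many of them under the control of the nuclear regulator Aire. Sirt1 is a protein deacetylase that has been linked to Aire activity.

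The largest differences were decreases of peptide precursor genes. Tac2, Gal and Tac1 were at least 2-fold lower in AireKO than in WT, and Npy stood at 51.4% of its WT level. None of the 5 granin and processing genes with a probe set differed by 2-fold in any of the 3 comparisons, but 4 of those 5 genes lay near or within background. In Sirt1cKO, Tac1 and Gal were at least 2-fold lower than in WT, while Tac2 kept 72.5% of its WT level.

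Promoter sequences are shown for the pair with the largest decreases, Tac2 and Gal. They are also shown for the 3 genes in which a complete cyclic AMP response element was found, Chgb, Scg2 and Pcsk1. The levels of those 3 genes lay near or within background, so the promoters shown cannot be compared by level. Tac1, also lower than WT in both knockouts, is searched but not printed. Each run gives the 250 bases before the transcript start used in a RefSeq promoter table on GRCm38.p6, written 5′ to 3′ on the gene's own strand. For Pcsk1 that start lies inside the span RefSeq gives the gene, so its window is not upstream of the outermost start, and the same holds for the window of Scg3, which is searched but not printed. The windows are chr10:127724228-127724477 on the + strand for Tac2, chr19:3414545-3414794 on the - strand for Gal, chr2:132781392-132781641 on the + strand for Chgb, chr1:79440027-79440276 on the - strand for Scg2 and chr13:75089607-75089856 on the + strand for Pcsk1. Capitals mark the element TGACGTCA or, in the absence of the whole element, its core TGACG on either strand, so a run without capitals holds neither.
Tac2: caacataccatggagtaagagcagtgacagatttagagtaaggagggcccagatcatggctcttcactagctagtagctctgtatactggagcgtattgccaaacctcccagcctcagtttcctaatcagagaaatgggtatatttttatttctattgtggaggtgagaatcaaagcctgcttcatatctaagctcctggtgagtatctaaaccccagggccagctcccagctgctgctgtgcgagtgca
Gal: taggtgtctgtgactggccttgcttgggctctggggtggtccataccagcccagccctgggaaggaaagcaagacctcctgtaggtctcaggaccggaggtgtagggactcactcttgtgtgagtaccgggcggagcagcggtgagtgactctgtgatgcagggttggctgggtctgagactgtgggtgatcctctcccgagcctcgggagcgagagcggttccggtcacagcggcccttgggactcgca
Chgb: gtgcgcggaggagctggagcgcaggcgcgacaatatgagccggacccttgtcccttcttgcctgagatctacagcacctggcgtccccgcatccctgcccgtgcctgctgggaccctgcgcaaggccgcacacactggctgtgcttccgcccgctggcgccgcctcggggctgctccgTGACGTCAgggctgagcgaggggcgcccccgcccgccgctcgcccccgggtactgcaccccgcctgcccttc
Scg2: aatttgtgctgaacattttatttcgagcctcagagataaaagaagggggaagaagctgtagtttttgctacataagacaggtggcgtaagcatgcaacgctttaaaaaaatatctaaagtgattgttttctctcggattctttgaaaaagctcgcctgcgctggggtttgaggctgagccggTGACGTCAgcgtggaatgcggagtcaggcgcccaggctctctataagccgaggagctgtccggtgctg
Pcsk1: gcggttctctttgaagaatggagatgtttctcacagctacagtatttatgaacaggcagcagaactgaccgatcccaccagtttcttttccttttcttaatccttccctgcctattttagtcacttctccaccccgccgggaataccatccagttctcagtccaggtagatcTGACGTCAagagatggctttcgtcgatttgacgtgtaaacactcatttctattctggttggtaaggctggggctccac

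The complete element, the classical binding site of the transcription factor CREB, lay between -72 and -65 in Chgb, between -68 and -61 in Scg2 and between -78 and -71 in Pcsk1, counted back from the start used in that table, an internal start in Pcsk1. It was found in the windows of 3 of the 10 listed genes, against 1.55% of 32851 promoter windows of the same length. The core TGACG, which also lies inside the whole one, was found on either strand in 7 of the 10 windows and in 17.8% of all windows. Tac1, Scg3, Scg5 and Pcsk2 held the core without the whole one, and Tac2, Gal and Npy held neither in this window. The letters TATAAA, searched on both strands, were in 0 of the 10 windows and in 12.4% of all windows. These matches are descriptions of letters, and none of the libraries measured binding.

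Features of the libraries bear on all the values that follow. The free-text descriptions of AireKO and Sirt1cKO each name the other's genotype, so groups follow the titles and genotype labels, and values with the labels exchanged are given after the main counts. Aire stood at log2 11.97 in WT, 11.55 in AireKO and 11.24 in Sirt1cKO, and Sirt1 at 11.40, 11.42 and 11.27. A whole-transcript probe set can lie outside a deleted part, so these levels check neither label. The libraries also differed in Xist, at 12.17, 6.75 and 11.46 in the same order, and in Y-linked genes such as Uty, at 4.78, 8.87 and 8.43. By these genes WT read as female, AireKO as male and Sirt1cKO as a pool of both sexes. Sex thus cannot be told apart from genotype in any of the 3 comparisons. H2-Ea, an MHC class II gene, was bright in AireKO alone, at 13.23 against 5.60 in WT and 5.90 in Sirt1cKO. Its rise over WT was the largest of all 12556 measured genes. The same strain is named for all 3 libraries, and whether the pools shared a genetic background was not tested. Genotype cannot be told apart from these differences. The background, taken as the 95th percentile of 1027 olfactory receptor genes in each library, was log2 6.02 in WT, 6.34 in Sirt1cKO and 6.89 in AireKO, so the limit for a dim gene was highest in AireKO. All 10 thymic epithelial markers, among them Epcam, Krt5 and Fezf2, were above background in all 3 libraries.

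Tac2 encodes the precursor of neurokinin B, a tachykinin peptide best known from hypothalamic neurons that control reproduction. Its intensity was 1337 in WT, 969 in Sirt1cKO and 65.2 in AireKO, or 10.39, 9.92 and 6.03 on the log2 scale. WT and Sirt1cKO were bright and AireKO lay within its background, so Tac2 was at least 11.3-fold lower in AireKO than in WT and at least 8.19-fold lower than in Sirt1cKO. The log2 difference between AireKO and WT read -4.36, or -3.50 as a bound with background in place of the AireKO value. By the uncorrected reading it had rank 5 from the lowest among 12556 measured genes, that is, genes whose brightest library reached the median of all values. Such a rank rests on values within background and describes the readings only. In Sirt1cKO the difference from WT was -0.46, at rank 1708. In sorted bulk samples, fewer cells that express a gene and less RNA per cell cannot be told apart.

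Gal encodes the precursor of galanin, a neuropeptide of the brain, gut and endocrine tissues. Its intensity was 1089 in WT, 502 in Sirt1cKO and 121 in AireKO, on the log2 scale 10.09, 8.97 and 6.92. The 3 libraries lay well apart, with AireKO lowest and only 0.03 above its background on the log2 scale. Gal was 8.99-fold lower in AireKO than in WT, a log2 difference of -3.17 at rank 21 of the measured genes. It was 2.17-fold lower in Sirt1cKO than in WT, a difference of -1.12 at rank 136, and 4.15-fold lower in AireKO than in Sirt1cKO.

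Tac1 encodes the precursor of substance P and neurokinin A, tachykinins of sensory neurons and of the enteric nervous system. Its intensity was 333 in WT, 122 in Sirt1cKO and 115 in AireKO, on the log2 scale 8.38, 6.93 and 6.84. Here the knockout libraries lay together below WT, with Sirt1cKO above its background and AireKO within it. Tac1 was 2.73-fold lower in Sirt1cKO than in WT, a log2 difference of -1.45 at rank 37, and at least 2.82-fold lower in AireKO, with a reading of -1.54 that rests on a value within background. The difference between AireKO and Sirt1cKO was -0.09, and it was 0.08 after median centring.

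Npy encodes the precursor of neuropeptide Y, a peptide of sympathetic neurons and of the brain circuits that control feeding. Its intensity was 488 in WT, 386 in Sirt1cKO and 251 in AireKO, on the log2 scale 8.93, 8.59 and 7.97. All 3 libraries were above background, in the same order as for Tac2 and Gal. The difference from WT was -0.96 in AireKO, just short of 2-fold and at rank 1183, and -0.34 in Sirt1cKO, at rank 2722. Npy was thus measured in AireKO, whereas Tac2 and Tac1 have only a bound there.

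**Figure D1:**
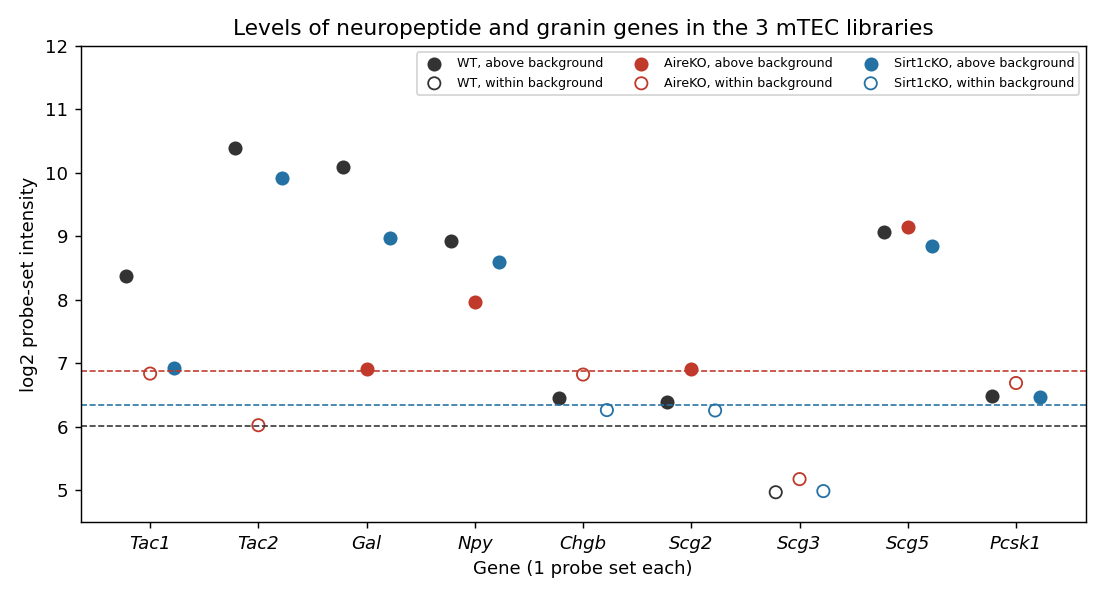
Points give the log2 probe-set intensity (vertical axis) of each gene (horizontal axis) in WT, AireKO and Sirt1cKO, 1 library each, with open points for values within the background that the dashed line of the same colour marks. Tac2 falls from 10.39 in WT to 6.03 in AireKO, Gal from 10.09 to 6.92, and Scg5 lies between 8.86 and 9.16 in all 3. Levels are to be compared between libraries within a gene, not between genes.

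Scg5 encodes 7B2, the chaperone that the convertase PC2 needs in order to mature. Its intensity was 539 in WT, 464 in Sirt1cKO and 571 in AireKO, on the log2 scale 9.07, 8.86 and 9.16. It was above background in all 3 libraries, and the whole range over the libraries was 0.30. The differences from WT were 0.08 in AireKO and -0.22 in Sirt1cKO. Scg5 was thus the gene outside the peptide precursors whose level was clear of background in every library.

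Chgb encodes chromogranin B and Scg2 encodes secretogranin II, granins of neuroendocrine vesicles. Chgb had an intensity of 88.0 in WT, 113 in AireKO and 77.0 in Sirt1cKO, and it was above background in WT alone, by 0.44 on the log2 scale. Scg2 had an intensity of 83.8 in WT, 121 in AireKO and 76.6 in Sirt1cKO, above background by 0.37 in WT and by 0.03 in AireKO and within it in Sirt1cKO. AireKO read highest for both genes, as did its background. The log2 differences from WT were 0.37 for Chgb and 0.53 for Scg2 in AireKO, and -0.19 and -0.13 in Sirt1cKO. For Chgb no fold between AireKO and Sirt1cKO is given, since both values were within background.

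Scg3 encodes secretogranin III, which tethers granins to the vesicle membrane. Its intensity was 31.4 in WT, 31.8 in Sirt1cKO and 36.2 in AireKO, all within background, so the array gave no level for it. Pcsk1 encodes the convertase PC1/3, which makes the first cuts in many precursors. Its intensity was 90.1 in WT, 88.7 in Sirt1cKO and 103 in AireKO, within background in AireKO and above it by 0.47 in WT and 0.13 in Sirt1cKO on the log2 scale. Its difference between Sirt1cKO and WT was -0.02, and 0.08 after median centring.

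Counted over all 9 genes with no filter on brightness, 3 were lower in AireKO than in WT by 2-fold or more and 0 were higher. Over all 19937 genes 5.51% were that much lower and 3.20% higher, and over the measured genes 8.46% and 2.68%. In Sirt1cKO, 2 of the 9 were at least 2-fold lower than in WT and 0 higher, where 1.13% of all genes and 1.68% of measured genes were lower, and 0.582% and 0.804% were higher. Between the knockouts, 2 of the 9 were at least 2-fold lower in AireKO than in Sirt1cKO and 0 higher, with 1.74% of all genes lower and 1.00% higher, and 2.72% and 1.04% of measured genes. The genes behind these counts were Tac1, Tac2 and Gal for AireKO, Tac1 and Gal for Sirt1cKO, and Tac2 and Gal between the knockouts. Of the 9 genes, 7 passed the brightness limit for measured genes, and Scg3 and Pcsk1 did not. Chgb and Scg2 passed it in AireKO alone, where Chgb, at log2 6.83, was within background and Scg2 lay 0.03 above it. The 9 genes had a median difference of 0.08 in AireKO and -0.22 in Sirt1cKO, against 0.02 and 0.00 over all genes and -0.19 and -0.07 over measured genes. These medians fall among the granin and processing genes, whereas the 4 precursors had a median of -2.35 in AireKO and -0.79 in Sirt1cKO. The AireKO median describes readings only, since Tac1 and Tac2 were within background there and Gal lay 0.03 above it. Over 41 other neuropeptide precursors, described below, the median was 0.01 in AireKO and -0.15 in Sirt1cKO. Both comparisons use the same WT library.

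The precursor genes were below WT in both knockouts under each scaling tried. Over the deposited values, quantile normalization, loess and median centring, the difference between AireKO and WT ran from -4.43 to -4.09 for Tac2, from -3.17 to -2.90 for Gal, from -1.54 to -1.27 for Tac1 and from -0.96 to -0.69 for Npy. The difference between Sirt1cKO and WT ran from -1.45 to -1.35 for Tac1, from -1.12 to -1.02 for Gal, from -0.46 to -0.37 for Tac2 and from -0.34 to -0.24 for Npy. The small differences of the other genes were less settled, since Scg3 stood above WT in AireKO as deposited and at -0.15 after loess and -0.16 after quantile normalization. Median centring moved the AireKO differences of all measured genes by 0.27, and turned the counts over measured genes from 1062 lower and 336 higher to 548 lower and 706 higher.

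**Figure D2:**
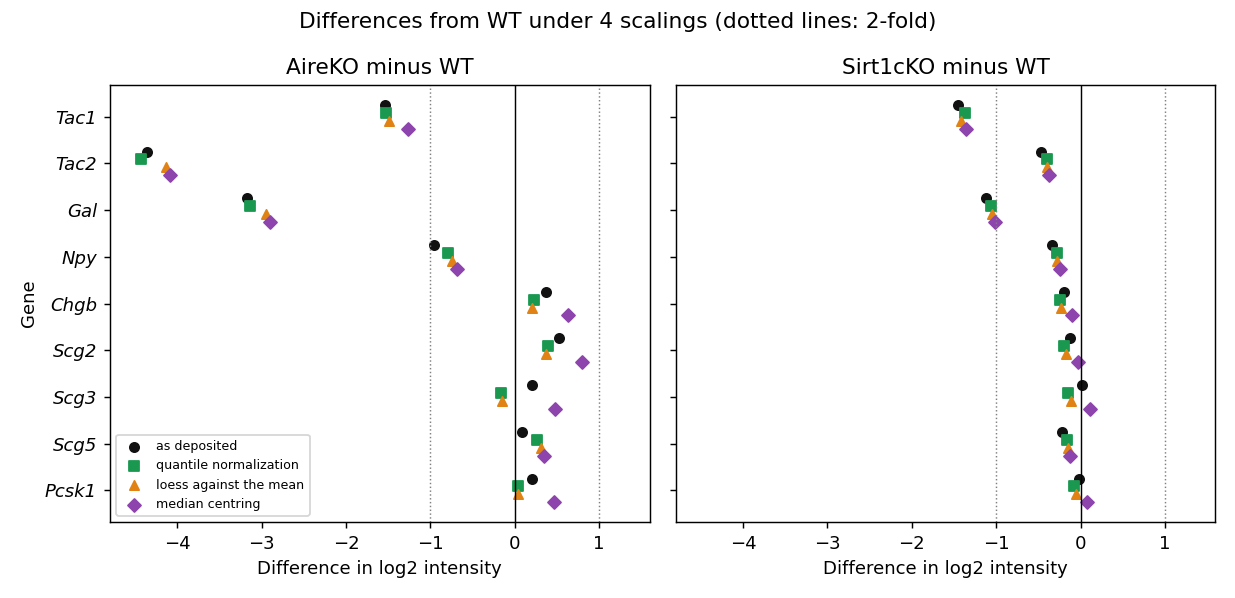
The horizontal axes give the log2 difference from WT in AireKO (left) and Sirt1cKO (right) for each gene, with 1 symbol per scaling. Tac2, Gal and Tac1 lie left of the 2-fold line in AireKO under all 4 scalings, and Tac1 and Gal do so in Sirt1cKO. Scg3 changes side with the scaling in both panels, and Pcsk1 in the Sirt1cKO panel.

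**Figure D3:**
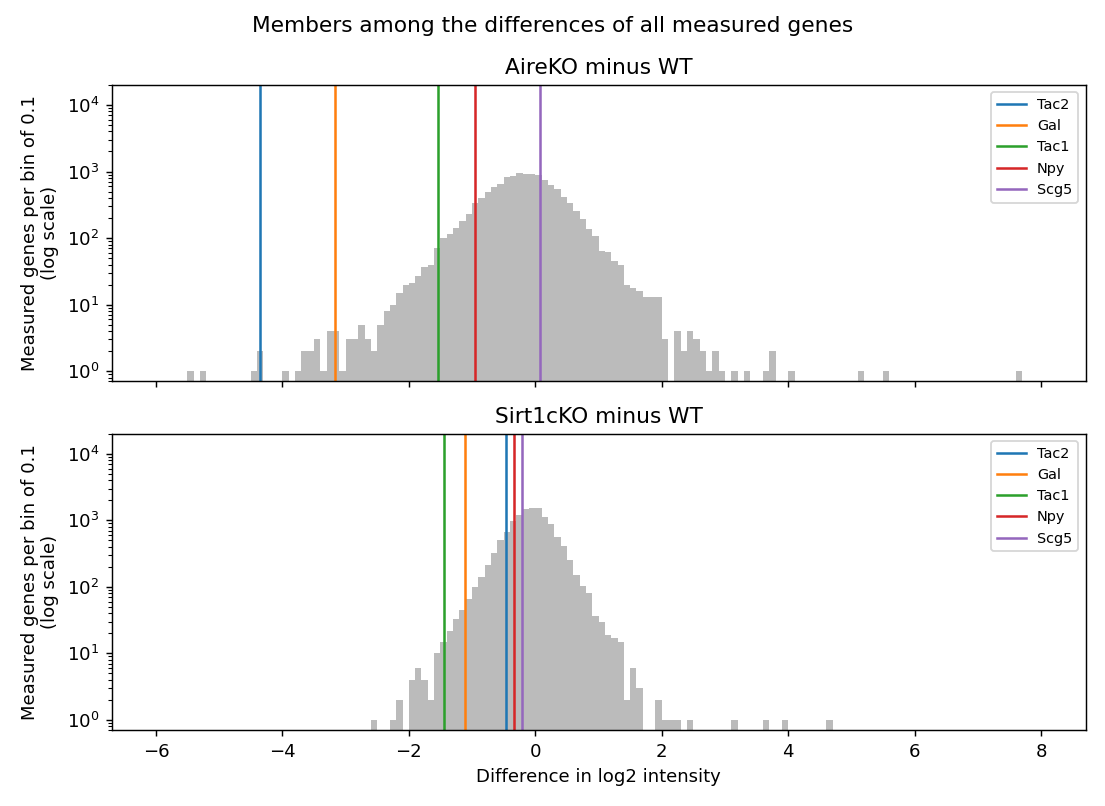
Grey bars count the 12556 measured genes by their log2 difference from WT (vertical axis on a log scale), and lines mark Tac2, Gal, Tac1, Npy and Scg5. In AireKO, Tac2 at -4.36, a reading within the AireKO background, and Gal at -3.17 lie in the far left tail, and in Sirt1cKO Tac1 at -1.45 lies farthest left of the 5 marked genes.

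With the labels of the knockouts exchanged, as the description fields have it, the Tac2 and Gal decreases of -4.36 and -3.17 belong to Sirt1cKO, that of Tac2 as a reading within background, and those of -0.46 and -1.12 to AireKO. Tac1, at -1.45 and -1.54, and Gal were at least 2-fold below WT in both libraries, and so under either reading of the labels.

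The genes most like Tac2 were sought by the distance between log2 profiles centred on their mean over the 3 libraries, among 12765 genes above background in WT and Sirt1cKO. The nearest were Ly6a2 at a distance of 0.26, Psca at 0.58 and Obp2a at 0.64. Ly6a2 is a member of the Ly6 family of surface proteins, and its log2 levels were 10.55 in WT, 6.08 in AireKO and 9.73 in Sirt1cKO. Psca, which encodes prostate stem cell antigen, stood at 10.84, 7.15 and 11.13, and Obp2a, an odorant-binding protein gene, at 8.43, 4.73 and 7.77. The AireKO values of Tac2, Ly6a2 and Obp2a were within background, so these distances are not exact, and the candidates were chosen on the libraries in which Tac2 is bright. A likeness over 3 libraries is weak and describes only those libraries.

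Other neuropeptide precursors held further large decreases. Unless said otherwise, levels from here on are log2 intensities in the order WT, AireKO and Sirt1cKO. Of 43 such genes listed, 41 were on the array with their own probe set. In AireKO, 7 of the 41, or 17.1%, were at least 2-fold lower than in WT and 0 were higher, against 5.51% and 3.20% of all genes and 8.46% and 2.68% of measured genes. With values within background taken as bounds, 6 remained and Pomc did not, at 1.77-fold. The 7 were Rln3, Nts, Sst, Cck, Nppa, Pomc and Penk, and all 7 stayed at least 2-fold lower under quantile normalization, loess and median centring. In Sirt1cKO, 4 of the 41, or 9.76%, were at least 2-fold lower and 0 higher. The shares there were 1.13% and 0.582% of all genes, and 1.68% and 0.804% of measured genes. Those 4 were Rln3, Nts, Nppa and Pomc, of which Rln3 came to between -1.01 and -0.98 under the other scalings. The count of lower genes in Sirt1cKO became 5 after loess and 3 after median centring. The median difference over the 41 genes was 0.01 in AireKO and -0.15 in Sirt1cKO, against the 0.02 and 0.00 over all genes.

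Rln3 encodes relaxin-3, a brainstem peptide, and its log2 level in WT, AireKO and Sirt1cKO was 10.26, 6.68 and 9.18, at least 10.3-fold lower in AireKO. Nts encodes neurotensin, a peptide of gut and brain, and it stood at 8.56, 5.67 and 6.79, at least 3.19-fold lower in AireKO and 3.42-fold lower in Sirt1cKO. Sst, the gene of somatostatin, stood at 10.35, 8.37 and 9.53. Rln3 and Sst followed the order WT, Sirt1cKO, AireKO that Tac2, Gal and Npy showed, while for Nts the order of the knockouts is not established, since its AireKO value was within background. Penk, the precursor of enkephalins, stood at 9.87, 8.43 and 9.78, with a difference of -1.44 in AireKO and -0.09 in Sirt1cKO. Nppa, the gene of atrial natriuretic peptide, stood at 8.53, 6.83 and 6.96, low in both knockouts as Tac1 was. Calcb, a calcitonin gene-related peptide gene, stood at 11.87, 11.60 and 11.31, and Avp, the vasopressin gene, at 7.38, 7.44 and 7.13, each within 2-fold of WT. Tac4, the third tachykinin gene, stood at 7.66, 7.93 and 7.76.

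**Figure D4:**
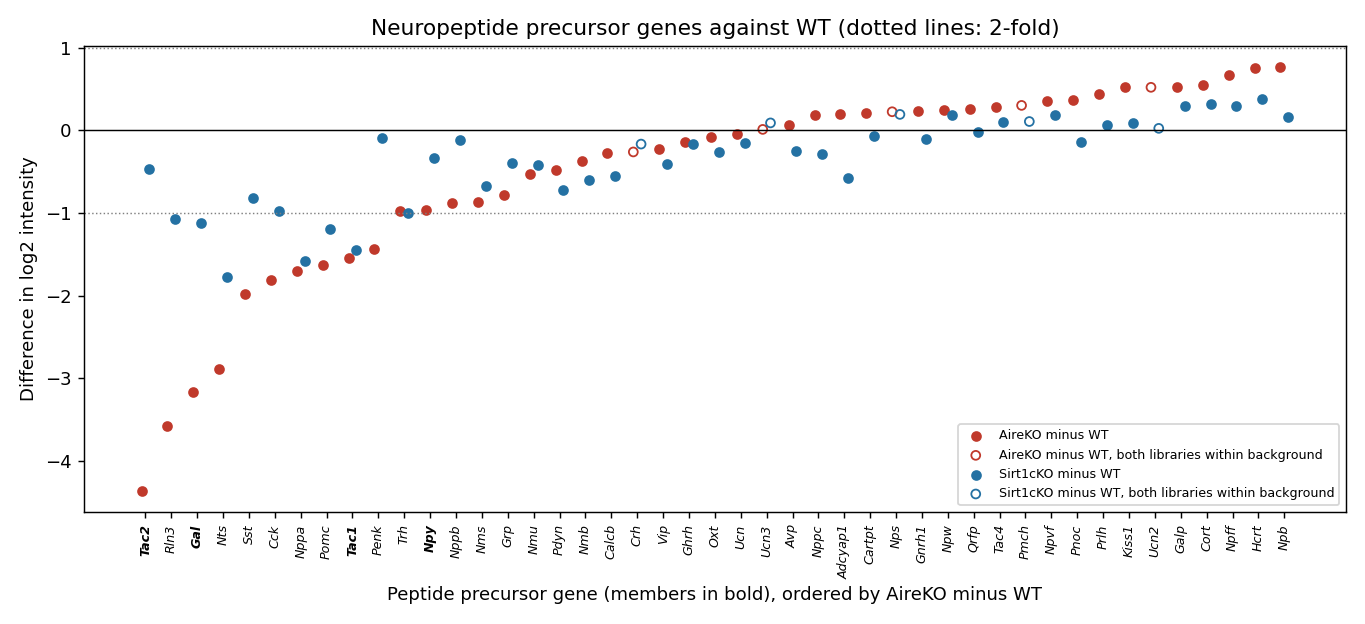
The vertical axis gives the log2 difference from WT in AireKO (red) and Sirt1cKO (blue) for 45 peptide precursor genes, ordered by the AireKO value, with open points where both libraries compared were within background. Tac2, Rln3, Gal and Nts stand at the left end, at -4.36, -3.58, -3.17 and -2.89 in AireKO, where Tac2, Rln3 and Nts were within background, and no gene passes 2-fold on the higher side as deposited, whereas 2 of them do so in AireKO after median centring.

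Other genes of the neuropeptide pathway were counted in the same way. Among 6 other proprotein convertases, 2, or 33.3%, were at least 2-fold lower in AireKO than in WT and 0 in Sirt1cKO, against 5.51% and 1.13% of all genes and 8.46% and 1.68% of measured genes. Furin, the ubiquitous convertase of the trans-Golgi network, stood at 9.30 in WT, 7.54 in AireKO and 8.76 in Sirt1cKO, a difference of -1.75 in AireKO. Mbtps1, the site-1 protease, differed by -1.07 there, and by -0.90 to -0.80 under the other scalings. Of 7 trimming and amidation genes, 0 differed by 2-fold from WT in either knockout. Cpe, the carboxypeptidase that trims cut peptides, was above background in WT alone, at 6.80, and Pam, which amidates peptides such as the tachykinins, stood at 10.29, 10.11 and 9.66.

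Other granins were likewise within 2-fold of WT, in 3 of 3 genes with a probe set. Chga, which encodes chromogranin A, stood at 10.02 in WT, 9.16 in AireKO and 10.43 in Sirt1cKO, a difference of -0.86 in AireKO and 0.42 in Sirt1cKO. AireKO minus Sirt1cKO was -1.28. Of 19 genes of vesicle release, AireKO had 2 at least 2-fold lower than WT and 1 higher, and Sirt1cKO 1 lower and 0 higher. In AireKO 5.51% of all genes were that much lower and 3.20% higher, and 8.46% and 2.68% of measured genes. In Sirt1cKO the shares were 1.13% and 0.582% of all genes, and 1.68% and 0.804% of measured genes. The higher gene was Snap25, a membrane fusion protein of nerve terminals, whose level was 9.20 in AireKO, 8.01 in Sirt1cKO and 7.32 in WT. Of the 2 lower genes, Rab27a, at -1.20, was within background in AireKO, with a bound of 1.70-fold. Slc18a1, a vesicular amine transporter gene, was at -1.01 and came within 2-fold under all 3 other scalings, from -0.87 to -0.74. Slc18a2, the other vesicular amine transporter gene, differed by -1.43 in Sirt1cKO, where it was within background, and was at least 1.91-fold lower there.

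Among 11 receptor genes for tachykinins, galanin and neuropeptide Y, 8 were within background in all 3 libraries. The others were Tacr1, Tacr2 and Galr3, with Tacr1, the substance P receptor gene, at 7.35 in WT, 7.89 in AireKO and 7.56 in Sirt1cKO. Tacr2 lay within the AireKO background, and the bound on its decrease from WT was 1.16-fold. Of 10 transcription regulators of neuroendocrine cells, 0 differed by 2-fold from WT in either knockout. Insm1, a zinc-finger factor of endocrine and neuronal precursors, stood at 10.14, 9.74 and 9.66, and Rest, the repressor of neuronal genes, at 7.63, 7.33 and 7.55.

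Markers of other cell types were set beside these values, again in the order WT, AireKO and Sirt1cKO. Neuroendocrine markers were above background for 5 of 8 genes in WT, 3 in AireKO and 4 in Sirt1cKO, with summed intensities of 2752, 1946 and 2733. Within these sums Chga gave 1036, 570 and 1382 and Insm1 gave 1127, 857 and 812, in opposite directions from WT in Sirt1cKO. Neurod1, Nkx2-2 and Rfx6 were within background in all 3. Neuron markers were above background for 4, 1 and 4 of 8 genes, with sums of 776, 1127 and 797, and Elavl4, Nefm, Stmn2 and Tubb3 were within background in all 3. Schwann cell markers were above background for 2, 1 and 2 of 3 genes, with sums of 282, 311 and 272. Of the neuron markers, Snap25 alone was above background in AireKO, at an intensity of 590 against 160 in WT. The Schwann cell values lay near a background whose intensity was 64.8 in WT and 118 in AireKO, so no change is read from that sum. The sums of neutrophil markers ran in the same order as Tac2 and Gal, at 4492, 912 and 2216, with 7, 3 and 6 of 7 genes above background. Single markers did not all do so, since 6 of the 7 read below WT in AireKO and 5 in Sirt1cKO. S100a9 was above WT in Sirt1cKO, by 0.26 to 0.29 under the other scalings. Camp was lowest in Sirt1cKO, at 7.66, 7.25 and 7.14. Eosinophil markers gave 3, 2 and 3 of 3 genes and sums of 879, 360 and 391. The epithelial markers summed to 54580, 41389 and 45224, with Krt5, Cldn3 and Cldn4 at least 2-fold lower in AireKO as deposited, of which Cldn4 alone stayed so after quantile normalization or loess and 0 did after median centring. Fibroblast sums were 2032, 4849 and 2681, with 5 of 6 genes above background in each library. Dcn alone gave 1083, 4033 and 1873 of these, while Pdgfrb differed from WT by -1.02 and Col1a1 by -0.16 in AireKO. Thymocyte sums were 1431, 1786 and 1817, with 8, 7 and 8 of 8. Endothelial sums were 453, 547 and 561, with 3, 2 and 3 of 4 genes above background. Macrophage and dendritic cell sums were 1412, 1569 and 1290, with 7, 4 and 6 of 7. B cell sums were 209, 270 and 212, with 2, 1 and 1 of 3. These AireKO sums include values within its higher background. The part of these cell types in the differences of the precursor genes was not tested.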

How the data were processed

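RNA of sorted mTEC was amplified and hybridised to Affymetrix Mouse Gene 1-ST arrays, 1 array per genotype, per the labels. The deposited values are linear probe-set intensities. The submitters' processing notes name RMA, without a version, and neither the annotation nor a return to a linear scale is stated. Log2 was taken with no further scaling, and precision is limited by the number of arrays.

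Of 34760 probe sets, 21640 carry 1 gene symbol, 1321 carry several and stay unnamed here, and 11799 carry none, by the platform table. Entrez identifiers of 99.6% of the first kind matched RefSeq genes of GRCm38.p6. The probe set with the highest mean was kept, giving 19937 genes. A gene was measured when its highest value reached log2 6.81, a limit below the AireKO background of 6.89. Values at or below the olfactory percentile were within background, and folds against them are bounds that put the percentile in place of the dim value.

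The genes, lists, alternatives and the background rule were chosen with earlier results of these data known. All 9 genes are named, other list genes mainly where they differed by 2-fold and were above background in at least 1 library. Further list genes, shown because they differed little or are central to the pathway, were chosen after their values were seen. The genes most like the gene of widest range were the nearest 3, leaving out predicted genes and olfactory and vomeronasal receptors. Alternatives were quantile normalization, loess with a span of 0.3, median centring of measured genes, probe-set means, bounds, 1.5-fold and 3-fold thresholds, other brightness filters and exchanged labels. The counting code was tested on simulated data. The scripts ran under Python 3.11.15, with pandas 2.3.3, numpy 2.4.6, matplotlib 3.10.9 and statsmodels 0.14.6.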

Additional observations from a re-analysis of the deposited data

How the results depend on the processing

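No paired analysis was possible because each genotype has 1 library, and for the same reason no library could be left out. The counts of genes at least 2-fold lower or higher kept their value or stayed within 1.5 times it under quantile normalization, loess, median centring and bounds. At 3-fold, 0 of the 9 genes were lower in Sirt1cKO than in WT, and at 1.5-fold 1 was higher in AireKO than in Sirt1cKO. The median over the 9 genes was less stable. For AireKO against WT it was -0.15 after loess, -0.16 after quantile normalization and -1.23 with bounds, which exist for 6 of the 9 genes, since Chgb, Scg3 and Pcsk1 give none in that comparison. For AireKO against Sirt1cKO, 0.19 as deposited, it was -0.032 after loess, -0.011 after quantile normalization and -0.33 with bounds. The reference counts over measured genes moved more. For AireKO against WT, 1062 lower became 548 after median centring, and 336 higher became 706, or 638 with no brightness filter. Between the knockouts, 341 lower in AireKO became 209 after median centring, and 131 higher became 226, or 200 with no filter.

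With the labels exchanged the medians were -0.22 for AireKO against WT, 0.082 for Sirt1cKO against WT and -0.19 for AireKO against Sirt1cKO. In that last comparison 0 genes were then lower and 2 higher, Tac2 at 3.89 and Gal at 2.05. Leaving out probe-set means, which cannot change a gene with 1 probe set, 101 of 128 values of single genes kept both sign and side of 2-fold. The 128 include the exchanged labels, which turn the sign of every difference between the knockouts by construction. That share is therefore not a measure of processing alone. The values within background in AireKO, those of Tac1, Tac2, Chgb, Scg3 and Pcsk1, are limited by signal over background, and no value has a replicate.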
